A study of Mus musculus with 20 samples.

Results

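The 10 genes described here make, package and recapture the amine transmitters and acetylcholine in a few small groups of neurons. They were taken as all probes whose annotated gene symbol is Th, Ddc, Dbh, Tph2, Slc6a3, Slc6a4, Slc18a2, Chat, Slc18a3 or Slc5a7. That rule gave 11 of the 25697 probes on the Illumina mouse bead array, 1 for each gene and 2 for Chat, and 10 of 16593 named genes. The rule used no measured value, but the 10 genes were chosen with earlier results of these data known. The samples were brains of 6 mice with the label "heterozygote wt", called wild type here, and of 6 mice heterozygous for a transgene of human mutant TDP-43, the RNA-binding protein found in the inclusions of amyotrophic lateral sclerosis. All were on a C57BL/6J background and 17 weeks old, each array had its own mouse number, and the design text describes the mutants as male. The numbers 1 to 6 given to the brains here are the replicate numbers of the sample titles, which are used again in each genotype. The promoter that drives the transgene, its mutation and the brain area that was dissected are not stated in the labels used here. Muscle of 4 wild-type and 4 mutant mice was profiled on the same platform. It is used only for detection, for signals of tissue markers and in the alternative that normalized and fitted all 20 arrays together.

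Dopamine and noradrenaline are made from tyrosine, first by tyrosine hydroxylase (Th), then by aromatic amino acid decarboxylase (Ddc) and, for noradrenaline, by dopamine beta-hydroxylase (Dbh). Serotonin is made in the brain by tryptophan hydroxylase 2 (Tph2) followed by the same decarboxylase. The vesicular monoamine transporter Slc18a2 loads these amines into vesicles, and Slc6a3 and Slc6a4 take dopamine and serotonin back up at the plasma membrane. Acetylcholine is made by choline acetyltransferase (Chat), loaded into vesicles by Slc18a3 and renewed through the choline transporter Slc5a7. The cell bodies of these neurons lie in compact nuclei, such as the substantia nigra, the raphe, the locus coeruleus, the basal forebrain and the motor nuclei, while Th is also made by local neurons of the olfactory bulb.

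Between 11736 and 12966 probes were above background on a brain array, meaning a detection p under 0.05 against the array's negative controls. Of 9 brain marker genes with a probe, 7 were above background on all 12 brain arrays, among them Syn1, Gfap and Mbp, and the probes of Snap25 and Nefl on 0. Of 8 muscle markers, Ckm, Myh4, Myh1 and Tnnt3 were above background on 0 of 12 brain arrays, Mylpf on 2, Actn3 on 7 and Acta1 and Myl1 on 12. The signals of Acta1 and Myl1 on brain arrays reached at most 204 and 241, against at least 20306 and 23200 in muscle. On the first principal component, which held 45.4% of the variance, wild type 2 (38.5), wild type 4 (41.05) and mutant 2 (32.7) stood apart from the other brains. On the second component (13.1%), wild type 1 stood apart at -33.2, with the other brains at -3.51 to 18.5. The Y-linked Eif2s3y was above background on 6 brains, wild type 1, 2 and 4 and mutant 2, 3 and 5. Its log2 level there was 6.33 to 7.39, against 4.24 to 4.31 on the other brains, where Xist was higher (5.03 to 5.63 against 4.34 to 4.74). The Y-linked Kdm5d was at 4.46 to 5.23 on the brains with Eif2s3y and at 4.18 to 4.44 on the others. The Y-linked Uty was above background on 11 brains, at 4.38 to 5.06 over all 12, and did not follow the split. The lowest detected level of an array was 4.55 to 4.71. The Eif2s3y, Kdm5d and Xist levels go against the word male in the design text for 3 of the 6 mutants. The genotype differences of the members are therefore also given with regard to this split.

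Most of these genes gave a signal above background in brain RNA. The probes of Th, Ddc, Tph2 and Slc6a3 and the Chat probe ILMN_2827248 were above background on 12 of 12 brains. Slc5a7 was above background on 5 wild-type and 6 mutant brains, and Slc6a4 on 5 wild-type and 4 mutant brains. The vesicular transporters were at the edge of detection, with Slc18a2 on 5 wild-type brains and 1 mutant brain and Slc18a3 on 4 wild-type and 2 mutant brains. Dbh passed on only wild type 4 and mutant 4, and the second Chat probe, ILMN_2656864, on 2 wild-type and 3 mutant brains. These last 2 probes fell under the minimum of 6 brains and were not tested, which left 9 probes of 9 genes. In muscle, Tph2 was above background on 2 mutant arrays, Slc6a3 on 1 wild-type array and Slc6a4 on 1 wild-type and 2 mutant arrays, and the other 8 probes on 0 of 8 arrays.

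None of the 9 tested genes passed the test between genotypes. The test was limma on log2 values over 12423 probes with Benjamini-Hochberg adjustment, and it called 0 of 9 members, against a background of 1 probe or 0.00805%. That 1 probe, which belongs to no member and is named after its value was seen, was that of Masp2, a complement protease (log2 difference 1.18, SE 0.12, limma adjusted p = 0.000932). At an unadjusted p under 0.05 the count was 0 of 9, with 7.0% of all tested probes past it. Mutants did not lie wholly above or below wild type for any of the 9, where 0.596% of all tested probes had groups that did not overlap. Limma adjusted p-values of the members ran from 0.827 to 0.973. The mutant mean was the higher one for 6 members and the lower one for 3, beside 6277 higher and 6146 lower among all tested probes. RNA of a mixed tissue cannot tell fewer neurons of a type from less RNA per neuron.

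**Figure D1:**
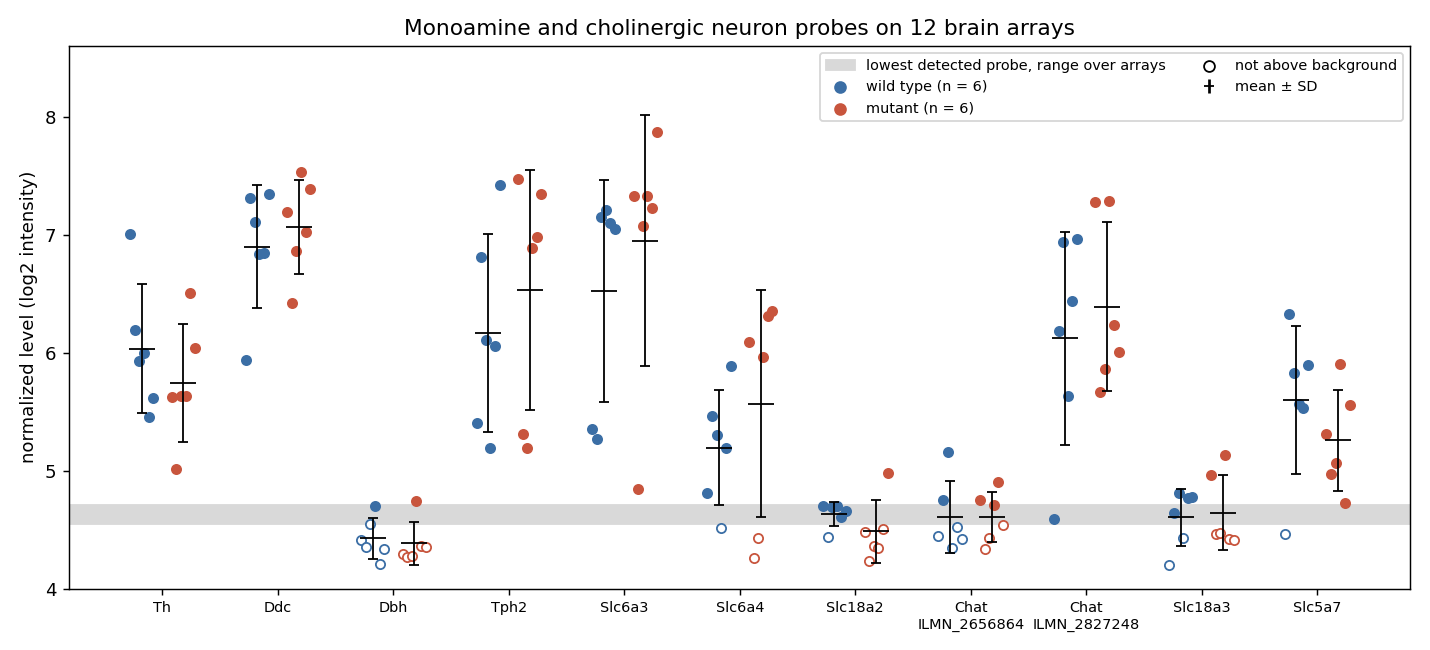
Normalized level (y axis, log2 intensity) of all 11 probes (x axis) in 6 wild-type and 6 mutant brains, 1 point per mouse, with the mean and SD of each group. Open points were not above background, and the grey band is the range over arrays of the lowest detected level (4.55 to 4.71). The genotypes overlap for all 11 probes.

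Among the enzymes, Th had log2 levels of 5.46 to 7.005 in wild type (median 5.97) and 5.01 to 6.51 in mutants (median 5.63). The highest brain was wild type 1 and the lowest was mutant 2, the 1 mutant below all wild-type mice. The means were 6.03 ± 0.55 (SD, n = 6) and 5.74 ± 0.50 (SD, n = 6), a log2 difference of -0.29 (SE 0.26, 95% interval -0.86 to 0.27, limma adjusted p = 0.855). The Th difference depended on wild type 1: without it the value was -0.097, and leaving out any single brain it ran from -0.445 to -0.097.

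Ddc, the decarboxylase that the dopamine, noradrenaline and serotonin pathways share, was at 5.94 to 7.35 in wild type (median 6.98) and 6.42 to 7.53 in mutants (median 7.11). Its lowest brain was again wild type 1, and the ranges overlapped almost fully. The group means of 6.90 ± 0.52 and 7.07 ± 0.40 (SD, n = 6 each) differed by 0.17 (SE 0.24, 95% interval -0.34 to 0.67, limma adjusted p = 0.907). Without wild type 1 the sign of the Ddc difference turned (-0.0226), and it also turned with median scaling (-0.0861), a setting that moves the median of all probes to -0.205.

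Tph2, the serotonin enzyme of the brain, ran from 5.19 to 7.42 in wild type (median 6.08) and from 5.19 to 7.47 in mutants (median 6.93). Mutant 1, 4, 5 and 6 lay between 6.88 and 7.47, and mutant 2 and 3 at 5.31 and 5.19. Its means of 6.16 ± 0.84 and 6.53 ± 1.01 (SD, n = 6 each) differed by 0.37 (SE 0.46, 95% interval -0.62 to 1.35, limma adjusted p = 0.897). The Tph2 value was 0.172 without wild type 4 and 0.634 without mutant 3. Dbh, the noradrenaline enzyme, had deposited signals of 99.8 to 128.2 in wild type and 101.4 to 121.0 in mutants. An array's lowest detected signal was 106.8 to 124.9, so Dbh gives no usable comparison.

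Among the transporters, the dopamine transporter Slc6a3 ran from 5.27 to 7.21 in wild type (median 7.07) and from 4.85 to 7.87 in mutants (median 7.28). Wild type 1 and 2 were low, at 5.36 and 5.27, and the other wild-type brains lay at 7.05 to 7.21. In mutants a single brain was low, mutant 2 at 4.85, and 4 mutants lay above every wild-type brain. The means were 6.52 ± 0.94 and 6.95 ± 1.06 (SD, n = 6 each), a log2 difference of 0.42 (SE 0.49, 95% interval -0.64 to 1.48, limma adjusted p = 0.890). This value was 0.844 without mutant 2 and 0.174 without wild type 2, with 0 calls when any single brain was left out.

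The serotonin transporter Slc6a4 was at 4.52 to 5.89 in wild type (median 5.25) and 4.26 to 6.35 in mutants (median 6.03). Mutant 1, 4, 5 and 6 lay above every wild-type brain and mutant 2 and 3 below every one, the same division of the mutants that Tph2 showed. Its means of 5.20 ± 0.48 and 5.57 ± 0.96 (SD, n = 6 each) differed by 0.37 (SE 0.38, 95% interval -0.44 to 1.18, limma adjusted p = 0.874). For Slc6a4 it was 0.216 without mutant 6 and 0.634 without mutant 2. The vesicular transporter Slc18a2 was at 4.44 to 4.70 in wild type (median 4.68) and 4.23 to 4.98 in mutants (median 4.42). The lowest level that counted as detected was 4.55 to 4.71 on a brain array, so these values lie at the floor and their fold change is compressed. Slc18a2 means of 4.63 ± 0.10 and 4.48 ± 0.26 (SD, n = 6 each) differed by -0.15 (SE 0.12, limma adjusted p = 0.829). This was -0.0981 without mutant 2 and -0.248 without mutant 6 (limma unadjusted p = 0.0163, adjusted p = 0.854). The probe met the minimum of 6 detected brains mainly through wild type, and its direction is not independent of that filter.

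Among the cholinergic genes, the Chat probe ILMN_2827248 ran from 4.59 to 6.96 in wild type (median 6.31) and from 5.67 to 7.28 in mutants (median 6.12). Wild type 1 was the lowest brain, and mutant 1 and mutant 4 were the highest, both at 7.28. The means were 6.12 ± 0.90 and 6.39 ± 0.72 (SD, n = 6 each), a log2 difference of 0.27 (SE 0.40, 95% interval -0.60 to 1.13, limma adjusted p = 0.915). Without wild type 1 it was -0.0419. The other Chat probe, ILMN_2656864, had means of 4.61 ± 0.30 and 4.61 ± 0.21 (SD, n = 6 each) and was below background on 7 brains, so the 2 probes of this gene cannot be set against each other.

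Slc18a3, which loads acetylcholine into vesicles, was at 4.20 to 4.81 in wild type (median 4.70) and 4.41 to 5.13 in mutants (median 4.47), close to the floor. Its means of 4.60 ± 0.24 and 4.64 ± 0.32 (SD, n = 6 each) differed by 0.038 (SE 0.15, limma adjusted p = 0.973), and the sign turned without wild type 1, mutant 1 or mutant 4. The choline transporter Slc5a7 ran from 4.47 to 6.33 in wild type (median 5.70) and from 4.73 to 5.91 in mutants (median 5.19). Wild type 1 was the lowest and wild type 2 the highest of all 12 brains. Slc5a7 means of 5.60 ± 0.63 and 5.26 ± 0.43 (SD, n = 6 each) differed by -0.34 (SE 0.27, 95% interval -0.92 to 0.23, limma adjusted p = 0.827). The value was -0.572 without wild type 1 and -0.199 without wild type 2. Over 26 alternative fits the lowest limma unadjusted p of Slc5a7 was 0.0161, and the lowest adjusted p was 0.586.

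**Figure D2:**
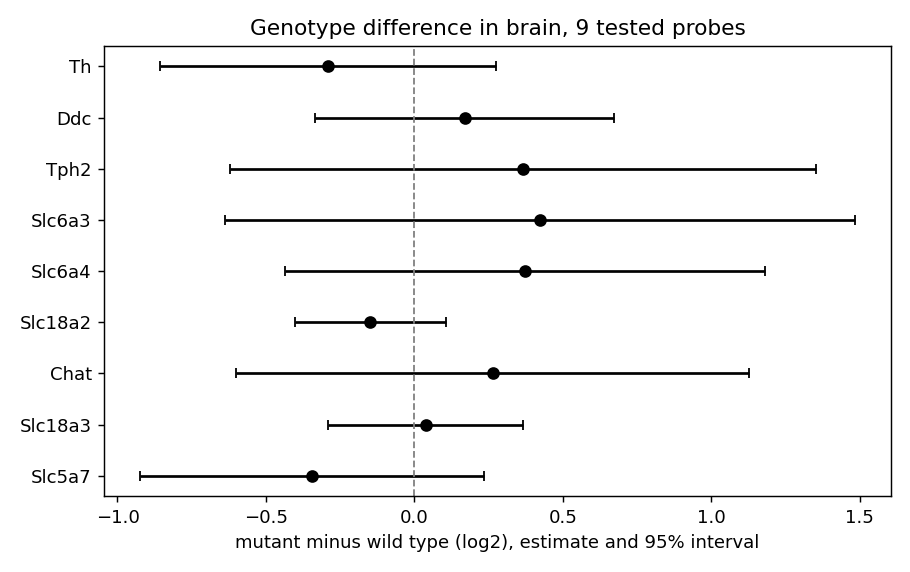
Log2 difference of each tested probe, mutant minus wild type (x axis), with its 95% interval from the fit across all probes. All 9 intervals include 0, and those of Slc6a3, Tph2 and Chat are the widest.

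Without the 3 brains that stood apart on the first principal component, 0 of the 9 passed either. Wild type 1, which stood apart on the second component, was kept in this fit. The log2 differences were then -0.115 for Th, 0.387 for Ddc, 0.528 for Tph2, 0.703 for Slc6a3, 0.531 for Slc6a4, -0.131 for Slc18a2, 0.302 for Chat, 0.0382 for Slc18a3 and -0.115 for Slc5a7. Each kept its sign, and the Slc6a3 value had a limma unadjusted p of 0.0476 and an adjusted p of 0.446.

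The 95% intervals were wide. Over the 9 genes they reached from a fold of 0.527 to a fold of 2.80 of the wild-type level. In simulated data of the same size, 92% of probes changed by 1 on the log2 scale were called. Of the 9 members, 8 vary more from mouse to mouse than the median probe, so that share does not carry over to those 8. The other member, Slc18a2, lies at the detection floor, where fold change is compressed, so the share does not carry over to it either.

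The genes varied strongly from mouse to mouse within each genotype. The within-genotype SD of log2 level was 1.00 for Slc6a3, 0.932 for Tph2, 0.814 for Chat and 0.760 for Slc6a4, against a median of 0.229 over all tested probes. Those 4 values lie at the 99.3, 99.1, 98.5 and 98.1 percentiles of tested probes. Slc5a7 (0.536), Th (0.523) and Ddc (0.462) also lay above the 90th percentile of 0.411. From the lowest to the highest of the 12 brains the level spanned 8.13-fold for Slc6a3, 6.48-fold for Chat, 4.85-fold for Tph2 and 3.00-fold for Ddc. The SD of Slc18a3 (0.282) and of Slc18a2 (0.200) was nearer the median, and both probes lay at the detection floor.

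**Figure D3:**
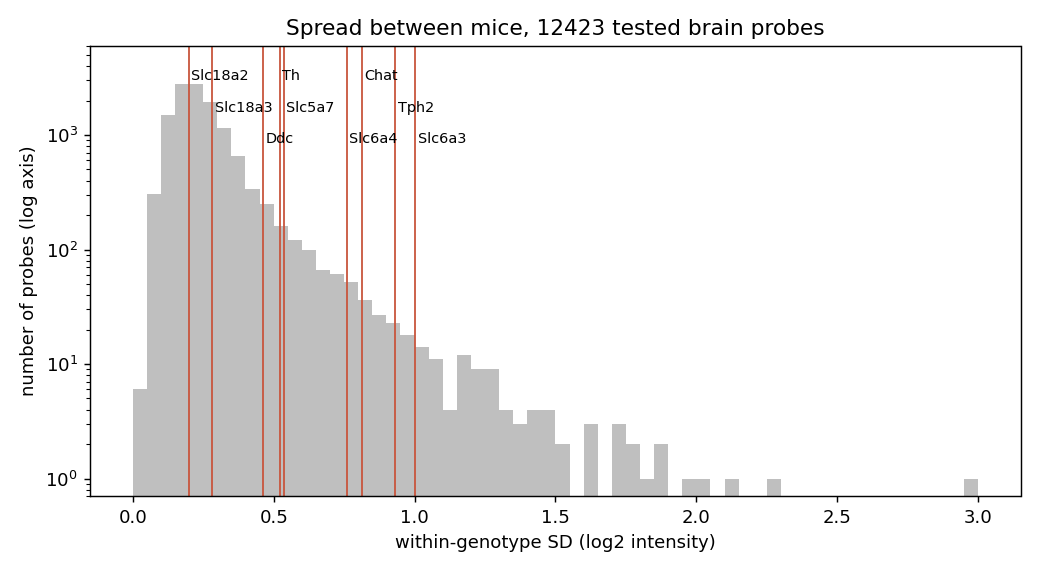
Histogram of the within-genotype SD of log2 level (x axis) over all 12423 tested probes, with the number of probes on a log axis (y axis) and a line for each of the 9 tested members. The SD of 7 of the 9 lies above the 90th percentile of tested probes (0.411).

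Single brains carried much of this variation. Mutant 2 was the lowest mutant for 6 of the 9 probes, those of Th, Ddc, Slc6a3, Slc6a4, Slc18a2 and Chat. It is also one of the 3 brains standing apart on the first principal component. Wild type 1 was the lowest wild-type brain for Ddc, Chat, Slc18a3 and Slc5a7 and the highest for Th and Slc18a2. Mutant 4 was the highest mutant for Ddc, Chat, Slc18a3 and Slc5a7, and wild type 6 the highest wild-type brain for Ddc, Tph2, Slc6a4 and Chat.

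In 2 cases, genes that act in the same neurons varied closely together from mouse to mouse. After the genotype means were subtracted, Tph2 and Slc6a4, the enzyme and the transporter of serotonin neurons, had a Pearson r of 0.947 and a Spearman rho of 0.902 over the 12 brains. The r was 0.977 in wild type and 0.969 in mutants, and 0.923 without mutant 2 and mutant 3, the brains farthest from the median of Tph2. Chat and Slc18a3, both needed by every cholinergic neuron, had an r of 0.926 and a rho of 0.881, and 0.926 without wild type 1 and mutant 4. Slc18a3 was not above background on 2 wild-type brains (1 and 4) and 4 mutants, so its order among those 6 brains is that of values at the floor. In mutants the relation is that of mutant 1 and 4 to the other 4. Other pairs of the same pathways were lower, with an r of 0.742 for Tph2 and Ddc, 0.714 for Chat and Slc5a7 and 0.687 for Slc18a3 and Slc5a7. For Th and Ddc the r was -0.231. Some pairs of an amine gene with a cholinergic gene were higher than these. Ddc and Slc5a7 had an r of 0.898 and a rho of 0.888, with 0.970 in wild type and 0.764 in mutants, and Ddc and Chat an r of 0.808. These correlations are descriptions without a p, since all genes were read on the same arrays after the same normalization. Over the 36 pairs of tested members r ran from -0.511 to 0.947 with a median of 0.437, and 28 were above 0.

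**Figure D4:**
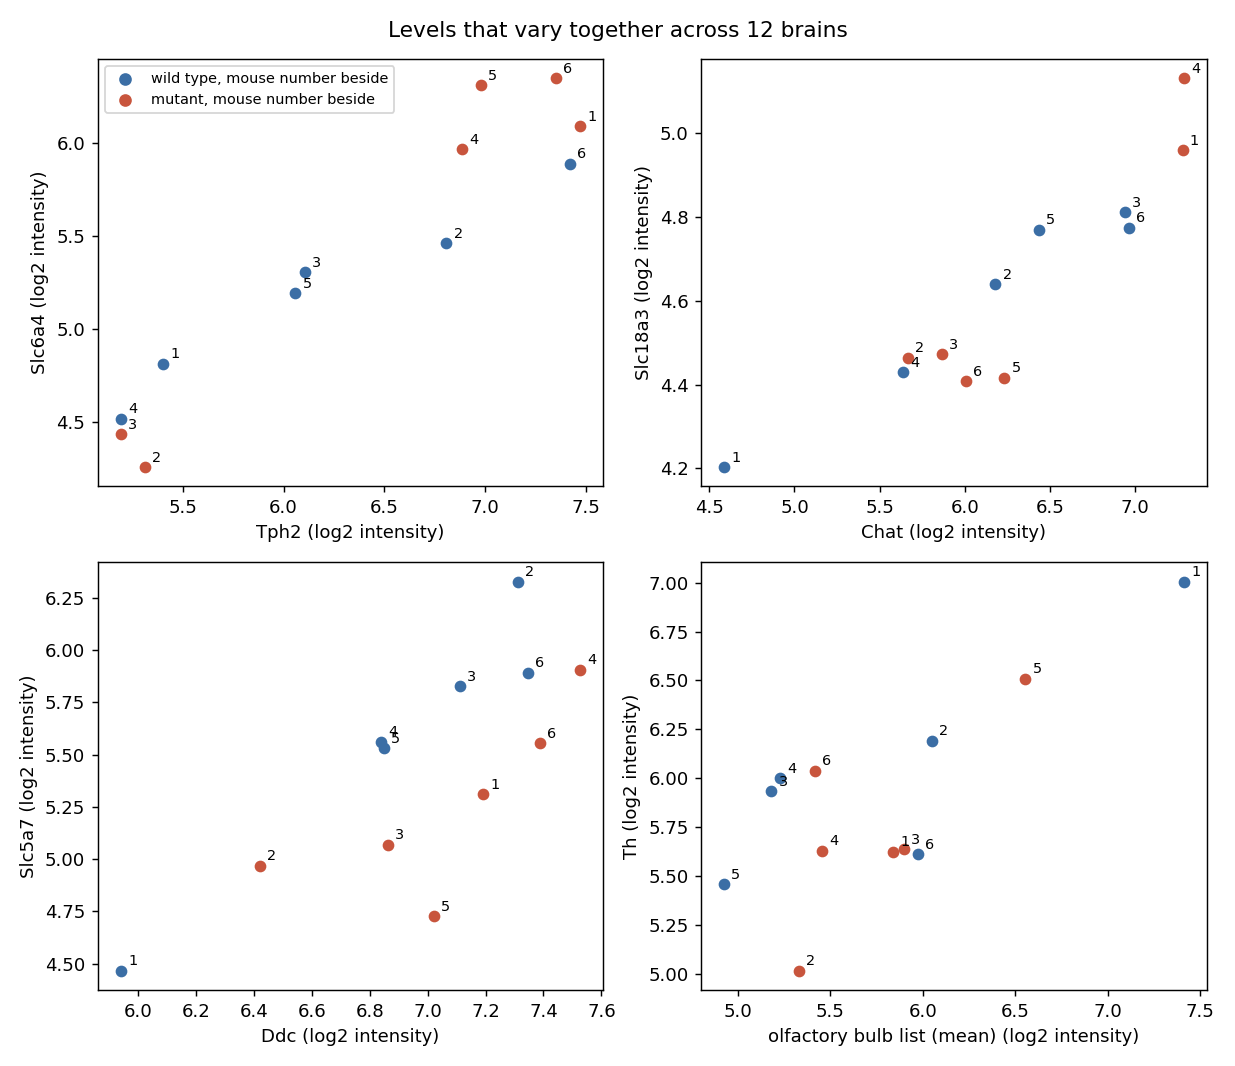
Levels (log2 intensity on both axes) of Tph2 and Slc6a4, Chat and Slc18a3, Ddc and Slc5a7, and the olfactory bulb list and Th. There is 1 point per brain, coloured by genotype with the replicate number beside it. Wild type 1 is at the low end of the Chat and Ddc panels and at the high end of the olfactory bulb panel.

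The dopamine pair gave other values. Th and Slc6a3, which dopamine neurons of the midbrain both use, had an r of -0.010 and a rho of 0.042, and an r of 0.367 without wild type 1 and mutant 5. Within wild type the r of Th and Slc6a3 was -0.769 and within mutants 0.722. Th was highest in wild type 1, where Slc6a3 was among the lowest. Th and Slc18a3 gave the lowest r of all pairs, -0.511, which was -0.117 without wild type 1 and mutant 5.

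The start regions of the genes behind these pairs are shown so that the Tph2 and Slc6a4 pair, the Chat and Slc18a3 pair and Th, which follows neither, can be read side by side. Each line gives the 250 bases before the RefSeq start of the gene on its own strand (assembly GRCm38.p6), 5′ to 3′. Th is at chr7:142899996-142900245 on the minus strand, Tph2 at chr10:115185023-115185272 on the minus strand and Slc6a4 at chr11:76998347-76998596 on the plus strand. Chat is at chr14:32465910-32466159 and Slc18a3 at chr14:32464851-32465100, both on the minus strand. Capitals mark exact matches, on either strand, to the cyclic AMP response element TGACGTCA, the GC box GGGCGG or the TATA box TATAAA; no matches overlap.
Th: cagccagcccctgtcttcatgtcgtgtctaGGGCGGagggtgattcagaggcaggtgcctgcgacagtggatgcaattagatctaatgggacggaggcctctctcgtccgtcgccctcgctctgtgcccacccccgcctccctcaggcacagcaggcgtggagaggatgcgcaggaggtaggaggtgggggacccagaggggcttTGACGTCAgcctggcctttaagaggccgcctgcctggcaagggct
Tph2: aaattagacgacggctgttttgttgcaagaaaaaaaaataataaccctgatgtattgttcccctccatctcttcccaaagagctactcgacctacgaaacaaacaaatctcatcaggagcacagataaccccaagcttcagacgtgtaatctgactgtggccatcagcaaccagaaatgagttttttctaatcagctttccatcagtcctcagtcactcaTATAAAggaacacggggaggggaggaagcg
Slc6a4: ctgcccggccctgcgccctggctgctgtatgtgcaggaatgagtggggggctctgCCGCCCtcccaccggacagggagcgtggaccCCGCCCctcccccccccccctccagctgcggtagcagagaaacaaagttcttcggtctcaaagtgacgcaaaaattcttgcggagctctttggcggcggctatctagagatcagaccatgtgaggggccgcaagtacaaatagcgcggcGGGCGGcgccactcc
Chat: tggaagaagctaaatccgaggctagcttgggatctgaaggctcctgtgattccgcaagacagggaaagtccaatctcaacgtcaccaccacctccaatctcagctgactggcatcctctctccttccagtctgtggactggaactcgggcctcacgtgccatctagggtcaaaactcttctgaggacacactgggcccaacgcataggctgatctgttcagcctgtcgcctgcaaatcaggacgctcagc
Slc18a3: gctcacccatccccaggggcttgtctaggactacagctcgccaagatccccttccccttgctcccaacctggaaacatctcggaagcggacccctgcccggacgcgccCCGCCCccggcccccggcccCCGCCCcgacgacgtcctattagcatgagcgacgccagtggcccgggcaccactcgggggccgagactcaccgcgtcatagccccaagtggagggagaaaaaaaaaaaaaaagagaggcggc

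The Th window holds 1 cyclic AMP response element that begins 45 bases before the start, and 1.55% of the 32851 RefSeq windows of the same length hold this motif. Th also has 1 GC box, Slc6a4 has 3 and Slc18a3 has 2, where 32.7% of windows hold at least 1. Tph2 has 1 TATA box that begins 30 bases before the start, found in 12.4% of windows. The 2 serotonin genes share none of these 3 motifs, and the Chat window matches none of them. Slc18a3 lies within the interval of Chat on chromosome 14, the arrangement known as the cholinergic gene locus. A match is a run of letters only and was not set against factor binding.

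Regional markers also differed between these brains. Of 72 correlations between the 9 members and 8 marker lists, r ran from -0.656 to 0.832 with a median of 0.053, and those given here are among the highest. The hypothalamus and pituitary list, for instance, had an r of -0.294 with Th and -0.039 with Slc18a2. The mean log2 level of the hypothalamus and pituitary list (10 of 17 genes tested) ran from 6.04 in wild type 1 to 8.18 in wild type and from 6.84 in mutant 2 to 8.47 in mutants. Its r with Chat was 0.832 (rho 0.832, and 0.656 without wild type 1 and mutant 2). The brainstem and spinal cord list (9 of 20 tested) ran from 5.08 in wild type 1 to 6.75 in wild type 2 and from 5.16 to 6.39 in mutants. That list had an r of 0.822 with Slc5a7 (rho 0.720, and 0.670 without wild type 1 and mutant 3). The cerebellum list (5 of 11 tested) was lowest in wild type 6, at 5.82, while the remaining wild-type brains lay at 7.57 to 8.04 and mutants at 7.52 to 8.11.

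Th was highest in the brain with the highest olfactory bulb markers. The olfactory bulb list (4 of 7 tested) was at 7.41 in wild type 1, from 4.93 in the lowest wild-type brain, and at 5.33 to 6.56 in mutants. Its r with Th was 0.781 but its rho was 0.524, and the r was 0.305 without wild type 1 and mutant 5, so the relation rests on those brains. Between genotypes, the median log2 difference of the list genes was 0.27 for hypothalamus and pituitary (8 of 10 higher in mutants) and -0.46 for brainstem and spinal cord (0 of 9 higher). It was 0.19 for cerebellum (4 of 5 higher), -0.055 for striatum (2 of 7), -0.037 for olfactory bulb (1 of 4) and 0.035 for cortex and hippocampus (4 of 7). Single brains decided several of these medians. Hypothalamus and pituitary was at -0.0131 without wild type 4 and 0.584 without mutant 2, cerebellum at -0.0469 without wild type 6 and olfactory bulb at 0.323 without wild type 1. Striatum was at 0.0794 without mutant 2, cortex and hippocampus at -0.056 without mutant 6, and brainstem and spinal cord at -0.244 without mutant 3. Of all tested probes 50.5% were higher, with a median of 0.0026, and 0 genes of these lists passed. The largest of these differences, in the pituitary hormones Prl (2.22, SE 0.99, limma adjusted p = 0.689) and Gh (1.64, SE 0.93, limma adjusted p = 0.749), did not pass.

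With the hypothalamus and pituitary, striatum and cerebellum levels in the fit, 5 members took the opposite sign between genotypes, and 0 passed. They were Th (0.05), Ddc (-0.014), Slc6a3 (-0.11), Chat (-0.27) and Slc18a3 (-0.15). The share of each region in the RNA was not measured, and its part in the levels of these genes was not tested. The choroid plexus list (6 of 7 tested) was at 6.52 to 7.29 in wild type and 6.70 to 7.44 in mutants. The adrenal medulla list, a source of catecholamine enzymes outside the brain, had 4 of 5 genes tested, at 9.10 to 9.83 and 9.38 to 9.64. Those 4, Chga, Chgb, Scg2 and Cyb561, are genes of secretory granules that brain neurons also express. Its defining gene Pnmt was above background on 0 of 12 brains.

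Several members also differed in mean level by the Y-linked signal, though the levels of brains with and without it overlapped. With genotype in the fit, brains with Eif2s3y were lower than those without by a log2 difference of -1.12 for Chat (SE 0.28, limma unadjusted p = 0.00129, adjusted p = 0.193). The Chat means were 5.69 ± 0.60 (SD, n = 6) with and 6.82 ± 0.50 (SD, n = 6) without it. The Slc6a3 means were 6.17 ± 1.12 (SD, n = 6) with and 7.30 ± 0.30 (SD, n = 6) without it. Among the brains with Eif2s3y, Slc6a3 was low in wild type 1, wild type 2 and mutant 2. In wild type 4, mutant 3 and mutant 5 it was at 7.21, 7.08 and 7.23. Differences with an unadjusted limma p under 0.05 were also found for Slc6a3 (-1.14), Tph2 (-1.07), Slc6a4 (-0.83), Ddc (-0.50) and Slc18a3 (-0.37), so 6 of 9 members had one, beside 13.9% of all tested probes. The split was made from the data and not from a label, and 0 of 9 members passed the adjusted limma threshold, where 5 probes or 0.0402% did. Those 5 probes, named after their values were seen, were for Eif2s3y, Xist, Kdm6a, Cdc20 and an unnamed transcript, ILMN_2899599. The 3 brains standing apart on the first principal component, and wild type 1 on the second, all carry Eif2s3y. Those divisions cannot be told apart for them. Between genotypes, 0 members passed within the brains with the signal, within those without it, or with it in the fit. In the brains without it, 3 wild-type and 3 mutant, 1002 of 12423 probes had an unadjusted limma p under 0.05. The Slc6a4 difference there was 0.674 (limma unadjusted p = 0.00635, adjusted p = 0.599). The Slc6a3 difference was 0.411 (limma unadjusted p = 0.0314, adjusted p = 0.605). Th was the member whose sign differed in those fits, at 0.096 in the brains without Eif2s3y.

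Genes around the same pathways also showed no call between genotypes. In 4 related lists 92 genes were named, 81 had a probe and 41 were tested. Of these, 18 were higher and 23 lower in mutants, where 50.5% of all tested probes were higher. The limma threshold was passed by 0 of them, beside 0.00805% of all tested probes. An unadjusted limma p under 0.05 was found for 1 gene or 2.4%, beside 7.0% of all tested probes. For cofactor and degradation enzymes (10 tested of 16; 4 higher, 6 lower, median -0.054) the lowest p was that of Spr, sepiapterin reductase of cofactor synthesis (0.29, SE 0.12, limma adjusted p = 0.661). The histamine enzyme Hdc differed by 0.30, the noradrenaline transporter Slc6a2 by -0.15 and the aldehyde dehydrogenase Aldh2 by -0.082, and none of these passed. For transcription factors and identity genes (10 tested of 20; 4 higher, 6 lower, median -0.077) the values were -0.46 for Sncg, a synuclein, -0.14 for Gata2, -0.39 for the neuropeptide gene Gal and 0.23 for Otx2. Sncg also stands in the brainstem and spinal cord list. The dopamine neuron factors Pitx3, Lmx1a, Foxa1, Foxa2 and En1 and the noradrenaline neuron factor Phox2a were below the detection minimum. Nr4a2, En2 and Ret of the same list were above background on 12 of 12 brains.

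For dopamine, serotonin and adrenergic receptors (10 tested of 26; 6 higher, 4 lower, median 0.018) the lowest p-values belonged to Htr2a (0.20), Adra2c (-0.17), Htr4 (0.18) and Htr3a (-0.13), with 0 passing. For cholinergic identity genes, acetylcholine breakdown and receptors (11 tested of 30; 4 higher, 7 lower, median -0.064) they belonged to the factor Gbx2 (0.56, SE 0.30, limma adjusted p = 0.742), Nkx2-1 (-0.24), the nicotinic subunit Chrnb1 (-0.22) and the neurotrophin receptor Ngfr (0.24). Listed genes below the detection minimum have no value here.

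The genes whose levels were most like each member were picked as the 3 highest r of genotype-centred levels among named probes over the 12 brains. For Tph2 these were Slc6a4 (0.947), Rarres2 (0.940) and Zfp36l1 (0.907), and for Slc6a4 they were Tph2 (0.947), Rarres2 (0.935) and Tctex1d2 (0.910). Chat had Rbms3 (0.9502), Rnase4 (0.936) and Slc18a3 (0.926), and Slc18a3 had the same 3 genes, Rbms3 at 0.936, Chat at 0.926 and Rnase4 at 0.896. Each gene of these 2 pairs had its partner among the 3 most like of the named tested probes. The ranking made no use of the pathway. It used the same r over the same 12 brains as the pairs above, so it adds no separate support.

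The genes most like the other members included 0 members. Slc5a7 had Fa2h (0.928), an enzyme of myelin lipid synthesis, Sncg (0.925), which stands in the monoamine identity list, and Akr1b10 (0.917). Ddc had Zbtb7c (0.958), Rab9b (0.951) and Mcfd2 (0.9501). For Slc6a3 they were Cnnm2 (0.899, rho 0.664), Ankrd49 (0.892) and Epm2aip1 (0.890, rho 0.552). Th had Ncbp3 (0.906), Hp1bp3 (0.893) and Gng3 (0.874), and Slc18a2 had Lrrc24 (0.867), Stx12 (0.866) and Polr2i (0.864). An r picked as the highest of many is larger than that of a pair chosen in advance.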

How the data were processed

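Expression was measured on Illumina mouse bead arrays, 1 per mouse, with total RNA of brain (6 wild-type and 6 mutant mice) and muscle (4 and 4), grouped by sample title. The deposited table holds, per probe and array, an unprocessed intensity signal. Each signal has a deposited detection p-value. Per the submitters' processing notes, GenomeStudio 2011.1 was used. A second deposited table of processed intensity values by the authors was used only as an alternative.

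Brain signals were background-corrected by normexp, inferring the negative controls from those p-values, given an offset of 16, quantile normalized and taken to log2 (the neqc procedure; R 4.3.3, limma 3.58.1). Probes with a detection p under 0.05 on at least 6 brain arrays, 12423 in all, were tested by limma (lmFit and eBayes), mutant minus wild type, with Benjamini-Hochberg adjustment over all of them and a threshold of 0.05. Fold changes of dim probes are shrunk by the offset, and the level of a probe is not compared with that of another. Precision is limited by the number of arrays, and p-values measure spread between mice.

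Of the 25697 probes, 23978 carry 1 gene symbol in the platform annotation, 0 carry several and 1719 carry none. All 10 genes matched the RefSeq table of promoters (GRCm38.p6), which lists 250 bases before to 50 bases after each start, and the part before the start was used. The members and lists were chosen with earlier results of these data known. Genes named are all members, for each list the passing genes or up to 4 of lowest p, for each tested member the 3 most like by r, and all called probes. For a listed gene, the brightest tested probe was used. On simulated data with 12423 probes, the fit called 92% of 100 probes changed by 1 and 97% of 100 changed by 2 on the log2 scale, with 9 false calls. No 2 brain arrays were identical, the most alike having an r of 0.990. Alternatives covered background correction, scaling, the detection filter, array weights, the replicate number as a block, regional levels, Eif2s3y and each array left out.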

Additional observations from a re-analysis of the deposited data

Results flagged for a closer look

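Of 22 groups of 6 brains, 11 probes in each genotype, 5 held a brain whose gap to its nearest neighbour was a large share of the range (Dixon's ratio above its 95% critical value). Chance gives about 1 in 20 such groups, and over the 12423 tested probes 6.08% of the groups did. The 22 groups include those of the untested probes of Dbh and Chat (ILMN_2656864), which that share leaves out. Of the 5, 3 are on probes at the detection floor, Dbh once and Slc18a2 in both genotypes. Ddc was at 5.94 in wild type 1, with the next brain at 6.84 and the highest at 7.35 (ratio 0.638). This brain also had the highest olfactory bulb list (7.41) and the lowest brainstem and spinal cord list (5.08). Slc6a3 was at 4.85 in mutant 2, with the next brain at 7.08 and the highest at 7.87 (ratio 0.737). Mutant 2 is one of the 3 brains that stood apart on the first principal component. For Dbh, mutant 4 was at 4.75 against 4.36 in the next brain (ratio 0.808), and it is the 1 mutant where that probe was above background. Slc18a2 was at 4.44 in wild type 2, where it was not above background, against 4.61 in the next brain (ratio 0.643). In mutants Slc18a2 was at 4.98 in mutant 6, the 1 mutant where it was above background, against 4.51 in the next brain (ratio 0.633).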

How the results depend on the processing

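Over 27 alternatives, 12 of them leaving out 1 array each, 0 of 239 values of the 9 tested members passed the limma threshold. The number of all probes called, 1 as reported, was 2 without background correction, with the authors' values, with detection on every brain array, with the brainstem and spinal cord level as covariate, within the brains without Eif2s3y and without wild type 2, wild type 4 and mutant 2. It was 5 with array weights and with all 20 arrays normalized together, and 0 with the hypothalamus and pituitary, striatum and cerebellum covariates and within the brains with Eif2s3y. Leaving out single arrays it was 1 to 2. With the replicate number as a block it was 0, and 0 members passed; the r of same-numbered mice was above 0.1 for 4 of the 6 numbers and -0.07 to 0.621 over all 6, and 0 of 6 pairs were mutually most alike, so the numbers were not taken to pair the mice. Of the 9 log2 differences, 13 values took the opposite sign, none of them past the threshold: Ddc with median scaling (-0.0861); Slc18a3 with array weights (-0.0352); Th (0.0501), Ddc (-0.014), Slc6a3 (-0.11), Chat (-0.273) and Slc18a3 (-0.152) with the 3 regional covariates; and Th within the brains without Eif2s3y (0.096). Leaving out single arrays gave -0.0226 to 0.299 for Ddc, -0.0419 to 0.433 for Chat and -0.0601 to 0.0845 for Slc18a3. The cause was not tested. The r of Tph2 and Slc6a4 was 0.918 to 0.96, that of Chat and Slc18a3 0.881 to 0.948 and that of Ddc and Slc5a7 0.784 to 0.953 over their 19 alternatives, while Th and the olfactory bulb list ran from -0.135 within the brains without Eif2s3y to 0.891 within those with it. Detection on every brain array left no value for Slc18a2, Slc18a3, Slc5a7 and Slc6a4. Signals near background limit Slc18a2, Slc18a3, Dbh and the second Chat probe.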
